A study of Rattus norvegicus with 13 samples.

Results

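The genes encoding the proteins of the cytosolic ribosome were measured in the thyroid of 13 male Wistar rats whose mothers had been gavaged during pregnancy. Members were chosen by gene name (Rpl or Rps followed by digits and at most 1 letter, with Rplp0 to Rplp2 and Rpsa), and by measured brightness: the brightest probe of a gene was used, and it had to be well above background on at least 6 arrays. Of 81 gene names that fit, 80 passed (48 of the large 60S subunit and 32 of the small 40S subunit), among 20721 gene names with a tested probe. The gene left out, Rpl3l, is the paralogue of Rpl3 known from striated muscle. The groups were not used to choose members. All 80 probes were above background on 13 of 13 arrays, so that no member passed the filter through 1 group alone.

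The KI-treated group held 6 offspring of dams given potassium iodide at 1 mg/kg per day for 8 days from gestational day 9, and the control group held 7 offspring of dams given saline on the same schedule. The thyroid of the offspring was collected 30 days after weaning, on postnatal day 51. Each sample was 1 single-colour array of total RNA. The litter of each animal is not given in the sources used here, so animals of a group may be siblings, and p-values measure only the spread between these samples.

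Each ribosome carries a single copy of most of these proteins, and cells make them in step. Their mRNAs are among the most abundant of any cell, and most of them begin with a run of pyrimidines, the terminal oligopyrimidine tract, through which the mTOR pathway adjusts their translation. In the thyroid follicle cell the ribosomes serve mainly the synthesis of thyroglobulin, the large secreted precursor of thyroid hormone. Some members have tasks outside the ribosome: Rpl5 and Rpl11 bind Mdm2, the inhibitor of p53, when ribosome assembly fails. Rps6 is the substrate of the S6 kinases.

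Promoter sequences from RefSeq (GRCr8) were matched by symbol for 63 of 80 members. The pyrimidine word CTTTC and, beside it, TTTCC and the longer CTCTTT, all of which can overlap, were searched on the gene's strand from 10 bases before to 25 bases after the annotated start. At least 1 of the 3 was found for 37 of the 63 members (58.7%), against 8.28% of 33469 promoters of all genes in the same window. Rpl41, with a low value in the KI-treated group, and Rps2, Rps4x and Rpl6, with high fold changes, had no word in the searched range. Rps19 had one, but not within 15 bases of the start. Only windows that hold a word are shown, with 15 bases on each side of the start and the searched words in capitals. They belong to 4 genes with low values in the KI-treated group and to Rpl28, the member with the highest fold change. Rps14, also among the 5 highest fold changes (0.030), had a word as well, and its window is not printed.
Rpl29 (chr8:115947628-115947657, + strand): gggcCTTTCTCTTTCtcttccggtcccagg
Rps9 (chr1:74430423-74430452, - strand): tccggcggccacgtttCTCTTTgtcacggg
Rps26 (chr7:1643390-1643419, - strand): gagagccgccgggtcCTCTTTCgagtcttg
Rplp1 (chr8:71290858-71290887, - strand): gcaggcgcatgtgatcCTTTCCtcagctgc
Rpl28 (chr1:78083518-78083547, - strand): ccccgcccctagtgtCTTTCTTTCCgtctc
Members with and without a word had close medians. The median log2 fold change between groups (KI-treated minus control) was −0.22 for the 37 members with a word and −0.20 for the 26 without.

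The probes themselves are shown for the members on which the comparison turned. Positions are on rn4, as the scanner files give them, and probes are read 5′ to 3′ as on the array. At least 1 reading frame was open over the whole probe in 80% of the brightest member probes and in 81.7% of all tested probes. An open frame therefore does not set a probe apart. The following probes of Rpl5, Rpl7, Rpl28 and Rps2 are open in at least 1 reading frame over all 60 bases and are given in lower case throughout.
Rpl5, upstream probe (chr14:2401385-2401444, - strand): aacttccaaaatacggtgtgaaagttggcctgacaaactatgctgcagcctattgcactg
Rpl5, brightest probe (chr14:2397752-2398364, - strand): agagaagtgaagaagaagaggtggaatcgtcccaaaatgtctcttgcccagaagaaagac
Rpl7, upstream probe (chr5:2316487-2316546, + strand): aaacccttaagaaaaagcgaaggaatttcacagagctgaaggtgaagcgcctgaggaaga
Rpl28, brightest probe (chr1:67770629-67770770, - strand): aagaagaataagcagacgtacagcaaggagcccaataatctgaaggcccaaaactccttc
Rps2, brightest probe (chr10:13976032-13976091, + strand): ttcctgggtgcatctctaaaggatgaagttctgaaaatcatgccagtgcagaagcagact
Other probes hold AATAAA, the word that can serve as a signal for polyadenylation; where these probes lie in their transcripts was not determined. Those of Rpl7 and Rps19 printed here are also open in at least 1 reading frame over the whole probe. Stretches of 30 bases from such probes of Rpl7, Rps19 and Rplp1 follow, with that word in capitals.
Rpl7, downstream probe (within chr5:2318712-2318771, + strand): atctggtcggttAATAAAcagtcacagctt
Rps19, brightest probe (within chr1:80182288-80182347, + strand): aggatgctgggttAATAAAttgcctcattc
Rplp1, brightest probe (within chr8:66046220-66046279, - strand): gttaacatgtccAATAAAgagctgaacctg
On the printed strand, AATAAA occurred in 26 of the 80 brightest probes (32.5%) and in 10.9% of the 25717 tested probes. The median log2 fold change was −0.23 for those 26 members and −0.19 for the other 54.

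Arrays differed before any gene was considered. Gene spots well above background numbered 34840 to 41050 of 58717 on each array, and no gene spot was saturated. Control 4 and control 6 were the dimmest arrays, with a 75th percentile of processed signal of 8.18 and 7.92 on the log2 scale against 8.48 to 9.10 on the other arrays. On these 2 arrays the bright end of the distribution was also wider, the 95th percentile lying 4.23 and 4.18 log2 units above the 75th against 3.73 to 3.87 elsewhere. They shared scan session 1 with KI 2 and KI 3. Of 12 thyroid genes (Tg, Tshr and others), 11 were above background on at least 6 arrays, the exception being Slc26a4. Summed levels below run over all genes of a list on the array, tested or not (12 for skeletal muscle, 11 for lymphocytes). Skeletal muscle genes, 11 of 12 tested, ranged from 2.46 to 6.72 in summed level in the KI-treated group and from 4.83 to 7.88 in the control group, Myh2 not being well above background on 6 arrays. Their median on KI 4, at −3.03 log2 units from the gene means, was the lowest of all arrays. All 11 had negative differences between groups (KI-treated minus control), with a median log2 fold change of −1.11 and 1 of 11 at an unadjusted p under 0.05, while KI 2 had a higher median (1.32) than all control arrays but control 5 (2.67). Lymphocyte genes, 5 of 12 tested, stood at 4.78 in summed level on KI 1 alone; the other 5 KI-treated arrays were at 1.34 to 1.56 and the control arrays at 1.52 to 2.59, and Cd3e and Cd8a were among those not well above background. Of 5 parathyroid genes, all tested, 3 had positive differences at an unadjusted p under 0.05, namely Gcm2 (1.09), Gata3 (0.65) and Chga (0.58). Pth, the hormone gene, had −0.24, and the summed level of the parathyroid genes was 8.60 to 9.06 in the KI-treated group and 8.70 to 9.51 in the control group. No gene of these tissues passed an adjusted p of 0.05 in limma. The part of these tissues in the results below was not tested.

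The values of ribosomal protein genes were on balance slightly lower in the KI-treated group, and no member passed the adjusted threshold. Levels are log2 processed signal minus the 75th percentile of the array, and differences are KI-treated minus control, fitted with limma over 25717 probes. The median log2 fold change of the 80 members was −0.20, against −0.078 over all probes. Most members lay near or above the 99th percentile of their arrays, so all probes are not a background of like brightness. That percentile was on average 6.22 log2 units above the 75th in the KI-treated group and 6.42 in the control group, a difference of −0.20. The members are themselves part of this bright end, so the percentile is not a reference free of them. Whether members differed from other probes of like brightness was not tested. Negative values were found for 74 of 80 members, against 60.7% of all probes. At an unadjusted p under 0.05, 14 of 80 members were lower in the KI-treated group, where 7.01% of all probes were, and 0 members were higher, where 5.71% of all probes were. After Benjamini-Hochberg adjustment 0 members and 0% of all probes passed 0.05 in limma, and the smallest adjusted p of a member was 0.354. In whole tissue, fewer cells of a type and less RNA per cell cannot be told apart.

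**Figure D1:**
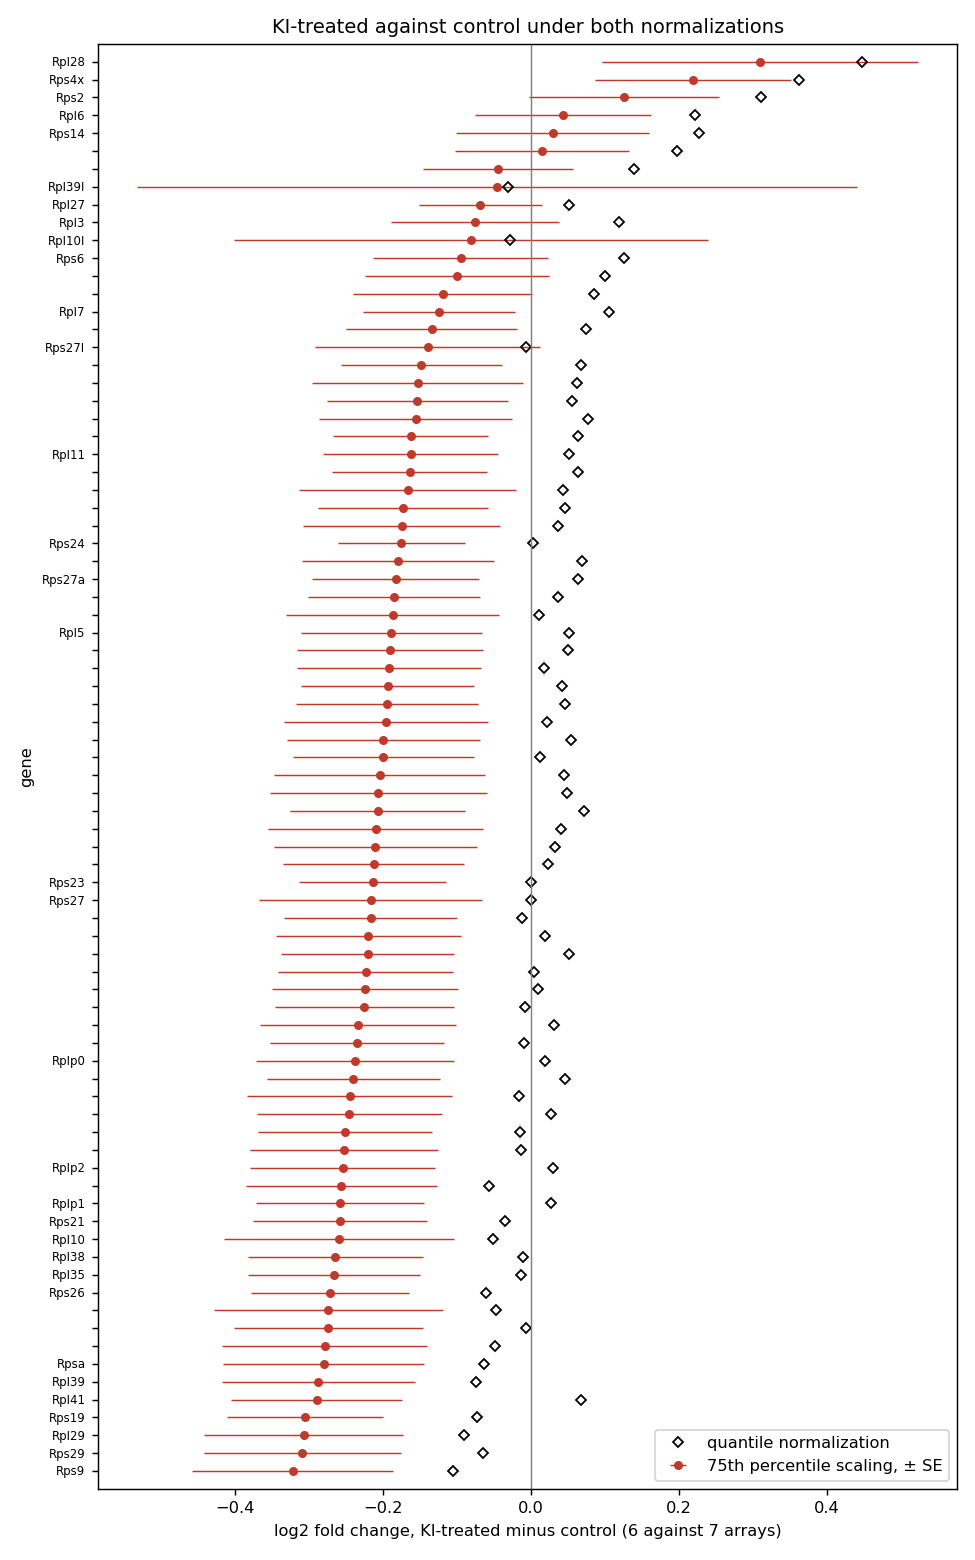
Log2 fold change, KI-treated minus control, of each of the 80 genes (vertical axis, genes named by the rule labelled) with 75th percentile scaling (filled circles, bars ± SE from limma, 6 against 7 arrays) and with quantile normalization (open diamonds). Under 75th percentile scaling 74 genes lie below 0, and under quantile normalization 24 do, with Rpl28, Rps4x and Rps2 highest under both.

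The direction rested on how the arrays were scaled. With quantile normalization, which gives every array the same distribution, the median of the members was 0.032 against −0.014 over all probes, 24 members had negative and 56 positive values, and 0 of 80 passed an unadjusted p under 0.05 in limma. Members are part of the bright end that this setting makes equal. It therefore cannot tell a difference of the members from a difference in array scale. In the authors' deposited log2 values the median was −0.015, with 1 member (Rps4x) higher and 0 lower at an unadjusted p under 0.05. Leaving out control 4 and control 6 from the percentile-scaled fit gave a median of −0.086 and left 2 of the 14 members, Rps19 and Rps26, under 0.05. In that fit 5.91% of all probes were lower at an unadjusted p under 0.05. Differences below are therefore given on the 75th percentile scale, with the quantile value beside them where it matters.

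Members moved together from array to array. On each array the deviation of every member from its own mean over the 13 arrays was taken, and the median over the 80 members is described. In the KI-treated group this median was lowest on KI 4 (−0.35), −0.055 at the middle of the group and highest on KI 2 (0.023). In the control group it was lowest on control 3 (−0.12), 0.025 at the middle and highest on control 4 (0.46), followed by control 6 (0.28). The groups overlapped, with means ± SD of −0.10 ± 0.14 (n = 6) and 0.097 ± 0.21 (n = 7), and the difference of −0.20 was about the size of the SD within the control group. In the control group, 77 of 80 members were above their own mean on control 7, 75 on control 4, 70 on control 6, 49 on control 1, 39 on control 2, 18 on control 5 and 6 on control 3. In the KI-treated group the numbers were 48 on KI 2, 41 on KI 3, 30 on KI 5, 11 on KI 6, 4 on KI 4 and 3 on KI 1, so that both groups held arrays with many and arrays with few. Large and small subunit members moved alike, with medians of 0.46 and 0.46 on control 4 and of −0.35 and −0.35 on KI 4.

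**Figure D2:**
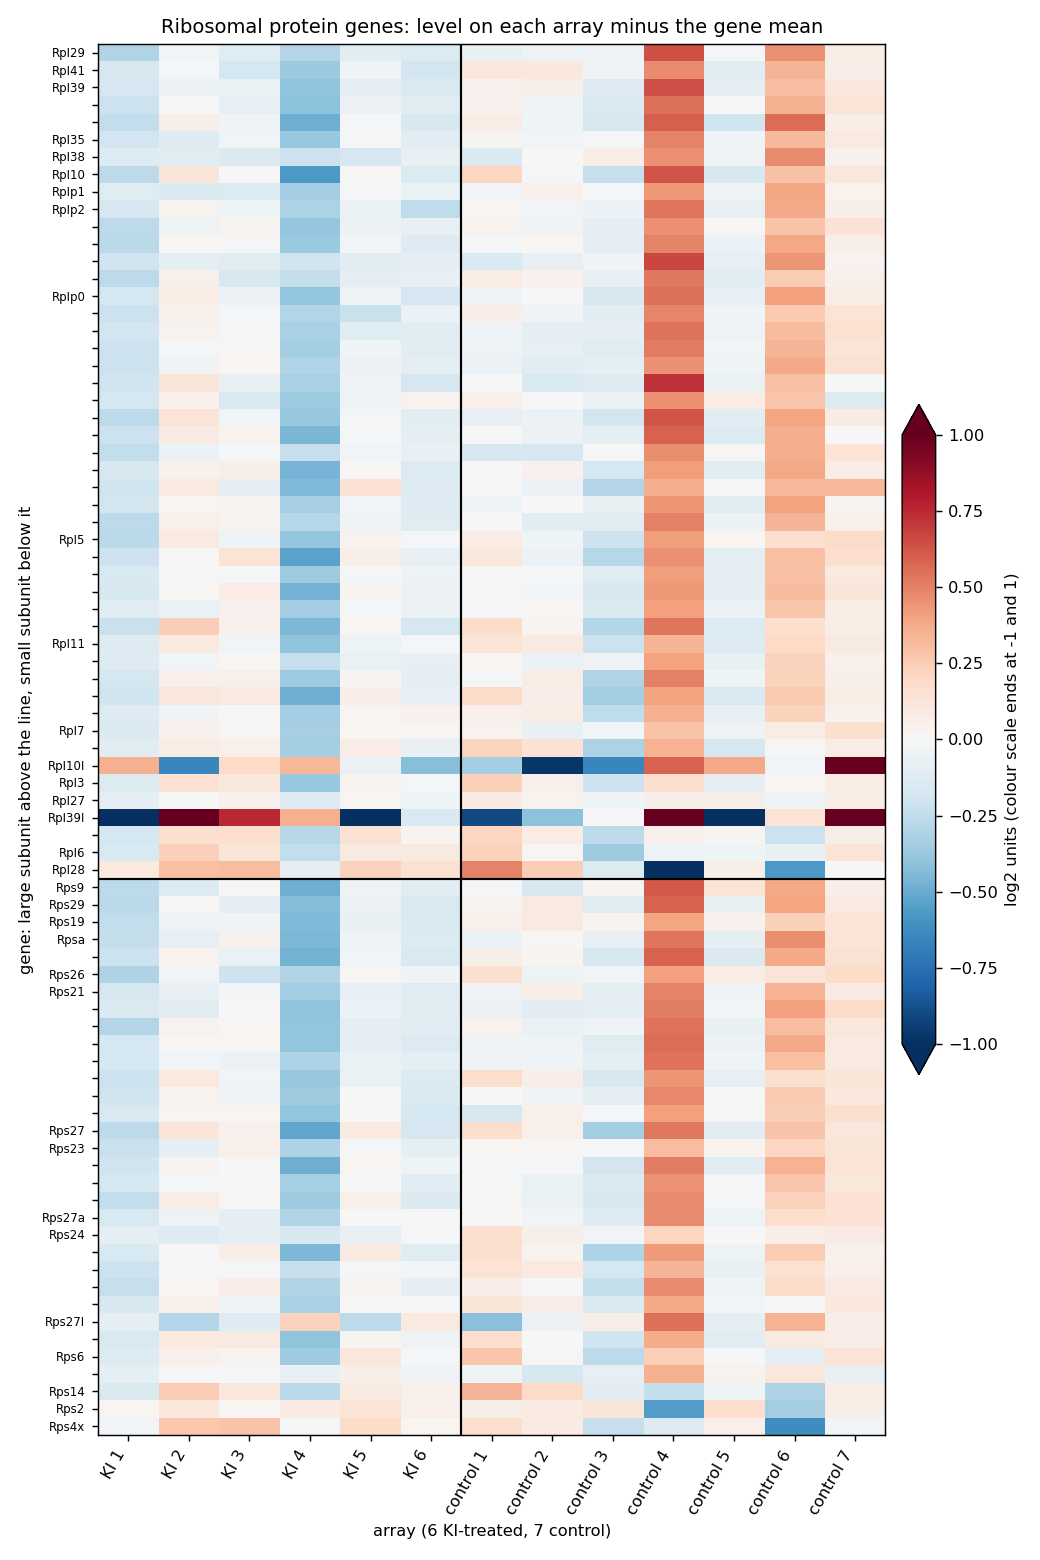
Deviation of each gene (rows, genes named by the rule labelled, 48 large subunit genes above the line and 32 small subunit genes below it, each ordered by fold change) from its own mean on each array (columns), in log2 units with the colour scale ending at −1 and 1. Control 4 and control 6 are red for nearly all rows and KI 4 is blue; Rpl28, Rps2 and Rps4x run the other way on control 6, and Rpl10l and Rpl39l vary on their own.

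Quantile normalization removed most of this movement. The array medians then lay between −0.069 and 0.076 in the KI-treated group and between −0.095 and 0.072 in the control group, and control 4 and control 6 were at −0.0535 and −0.095. The arrays with the widest bright end, control 4 and control 6, were those with the highest member medians before quantile normalization. The part of array brightness in the difference between groups was not tested apart from the alternatives given.

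**Figure D3:**
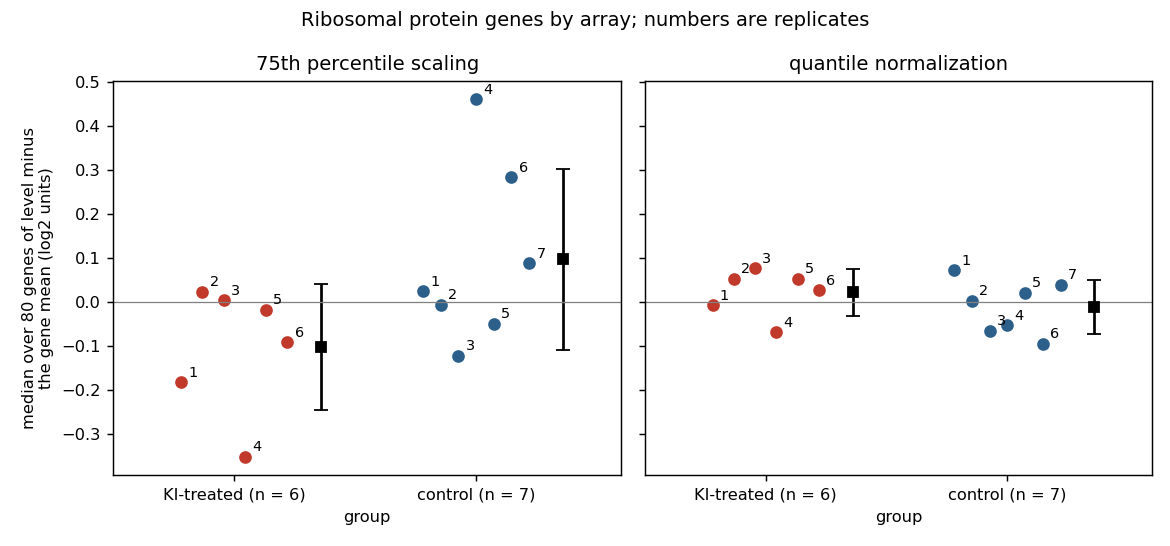
Median over the 80 genes of the level minus the gene mean on each array (points, numbered by replicate) with group means ± SD (squares), for 75th percentile scaling on the left and quantile normalization on the right. The spread from −0.35 to 0.46 on the left shrinks to −0.095 to 0.076 on the right, where the groups overlap.

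Of 6 slides, 5 held arrays of both groups, and within each of these 5 the members were lower in the KI-treated animals on the percentile scale. The median member difference within a slide was −0.45 for KI 2 against control 4 and −0.28 for KI 3 against control 6. It was −0.13 for KI 1 and KI 6 against control 2, −0.042 for KI 5 against control 1 and −0.25 for KI 4 against control 3 and control 5. By scan session, the differences were −0.37, −0.11 and −0.32. With the slide as a block, limma gave 38 of 80 members lower at an unadjusted p under 0.05, where 8.4% of all probes were, and with the scan session as a block 59 of 80, where 10.9% were. No member passed an adjusted p of 0.05 in either fit, the smallest adjusted p being 0.286 and 0.154. Under quantile normalization the within-slide differences lay between −0.048 and 0.18, with both signs. With quantile normalization and the slide as a block together, a setting chosen after seeing the data, 0 of 80 members were lower at an unadjusted p under 0.05 in limma, where 6.23% of all probes were, and 1 (Rps2) was higher, where 8.11% were. The median was then 0.040, with 59 of 80 values positive.

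Pairs of members were strongly correlated within groups. After each gene was centred in its group, the median Pearson r over 3160 pairs of members was 0.84 across the 13 arrays on the percentile scale and 0.35 with quantile normalization. Pairs of the 69 tested mitochondrial ribosomal protein genes, which encode the separate ribosome of the mitochondrion, had medians of 0.45 and 0.13. Pairs of 32 ribosome biogenesis factors had 0.20 and 0.15. All points share the same arrays and the same scaling, and these values are descriptions. Between a member and the median of the other members the middle r was 0.93, with 52 of 80 above 0.9, and the lowest values were −0.78 for Rps2, −0.55 for Rpl28 and −0.13 for Rps4x.

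Small subunit members had a median log2 fold change of −0.21, with 6 of 32 lower at an unadjusted p under 0.05, where 7.01% of all probes were. Their median was 0.011 with quantile normalization and −0.096 without control 4 and control 6. Rps19, needed for maturation of the small subunit and the gene most often mutated in Diamond-Blackfan anaemia, had the smallest p of all members. Its level was 7.52 at the lowest, 7.85 at the median and 7.92 at the highest in the KI-treated group, and 7.99, 8.05 and 8.36 in the control group. The groups of Rps19 did not overlap, which held for 1 of 80 members and for 0.327% of all probes in that direction. The difference was −0.30 (SE 0.105, adjusted p = 0.354). The exact two-sided permutation p, computed for each of the 80 members, was 0.000583 for Rps19; this is the smallest that 1716 splits of the arrays allow and restates that the groups did not overlap. The value was −0.073 with quantile normalization and −0.23 without control 4 and control 6.

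Rps26, which lines the channel where mRNA leaves the small subunit, had levels of 7.24, 7.42 and 7.56 (lowest, median and highest) in the KI-treated group and 7.50, 7.68 and 7.96 in the control group. The groups overlapped only between 7.50 and 7.56, and all 6 KI-treated arrays were below the control median. The difference, KI-treated minus control, was −0.27 (SE 0.107, adjusted p = 0.369). Rps9, an early-binding protein of the small subunit, had the lowest log2 fold change of the 80 members, −0.32 (SE 0.136, adjusted p = 0.381), and a range from 7.22 to 7.72 against 7.55 to 8.32. Rps29, a small zinc-binding protein, had −0.31 (SE 0.133) and Rps21 had −0.26 (SE 0.117). In each of Rps9, Rps29 and Rps21 the highest control array was control 4, and without control 4 and control 6 their values were −0.18, −0.17 and −0.14.

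Rps24 and Rps23 were among the 3 members with the smallest spread within groups (0.071 and 0.13 log2 units), and the other was Rpl27 (0.059). Rps24, another protein of small subunit maturation, ranged from 5.91 to 6.05 with a median of 5.97 in the KI-treated group and from 6.04 to 6.28 with a median of 6.13 in the control group. The groups met in a single narrow band, with a log2 fold change of −0.17 (SE 0.0857, adjusted p = 0.402). Rps23, a protein of the decoding centre, had −0.21 (SE 0.0996, adjusted p = 0.391). With quantile normalization Rps24 and Rps23 had log2 fold changes of 0.0032 and 0.000425.

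**Figure D4:**
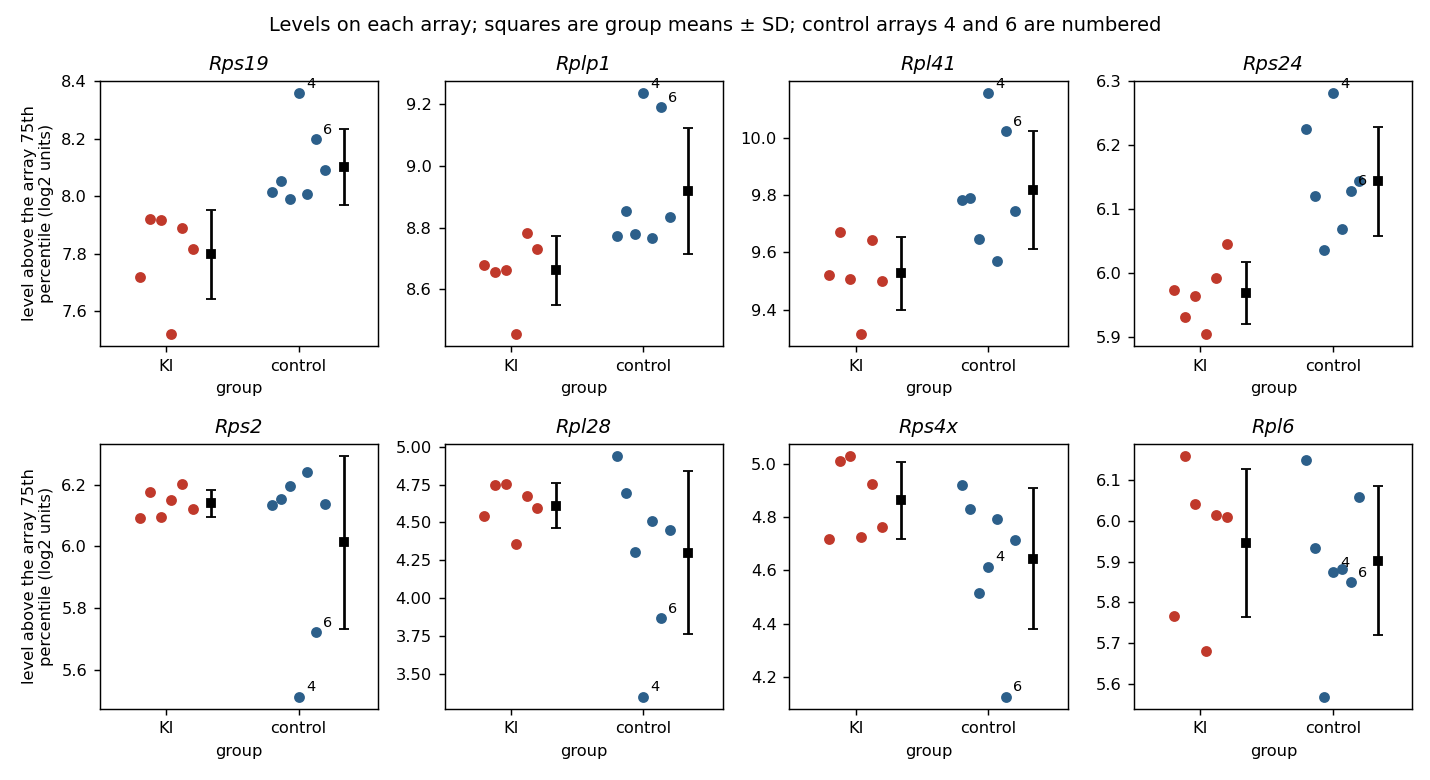
Level of 8 genes on each array, in log2 units above the array's 75th percentile, in the KI-treated (red, n = 6) and control (blue, n = 7) groups, with means ± SD as squares; each panel has its own vertical range. Rps19 is the gene whose groups do not overlap, and control 4 and 6 are highest for Rps19, Rplp1 and Rpl41 but lowest for Rps2 and Rpl28.

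Rpsa, the laminin receptor precursor that also sits in the small subunit, had a range from 6.46 to 6.96 in the KI-treated group and from 6.82 to 7.45 in the control group, with a log2 fold change of −0.28 (SE 0.136, adjusted p = 0.401). Rps6, the S6 kinase substrate, had nearly the same median in both groups, 6.56 and 6.57, and a log2 fold change of −0.095 (SE 0.118, adjusted p = 0.675). Rps27a, which is made as a fusion with ubiquitin, had −0.18 (SE 0.113, adjusted p = 0.457).

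Large subunit members had a median log2 fold change of −0.20, with 8 of 48 lower at an unadjusted p under 0.05, where 7.01% of all probes were. Their median was 0.043 with quantile normalization and −0.076 without control 4 and control 6. Rpl41, the smallest ribosomal protein, had levels of 9.31, 9.52 and 9.67 (lowest, median and highest) in the KI-treated group and 9.57, 9.78 and 10.16 in the control group. The difference was −0.29 (SE 0.116, adjusted p = 0.370), and it was 0.067 with quantile normalization. Rpl29, a basic protein also known as a heparin-binding protein of the cell surface, ranged from 7.08 to 7.36 against 7.31 to 8.02, with −0.31 (SE 0.135). Its 2 other probes, which lie upstream, had log2 fold changes of 0.026 and 0.033, and the value for the mean over its probes was −0.083. Rpl35, at the exit of the peptide tunnel, had −0.27 (SE 0.117). Rpl38, which in the mouse embryo affects translation of Hox mRNAs, had −0.26 (SE 0.119) with a KI-treated range from 7.67 to 7.81 and a control range from 7.74 to 8.36. Adjusted p-values of the 14 members lay between 0.354 and 0.393, and in 13 of the 14 all 6 KI-treated arrays were below the control median.

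The 3 acidic proteins of the stalk that recruits elongation factors were close to each other in their differences. Rplp1 ranged from 8.45 to 8.78 in the KI-treated group and from 8.77 to 9.24 in the control group, an overlap of under 0.02, with a log2 fold change of −0.26 (SE 0.114, adjusted p = 0.385). Rplp2 had −0.25 (SE 0.125) and Rplp0 had −0.24 (SE 0.134). With quantile normalization the 3 values were 0.027, 0.030 and 0.019.

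Rpl5 and Rpl11, the partners of Mdm2, had log2 fold changes of −0.19 (SE 0.123, adjusted p = 0.472) and −0.16 (SE 0.118, adjusted p = 0.506). Rpl5 ranged from 7.49 to 7.97 in the KI-treated group and from 7.67 to 8.30 in the control group. Rpl11 ranged from 7.28 to 7.78 and from 7.47 to 8.03, and both genes overlapped widely between groups. Rpl3, close to the centre of peptide bond formation, had −0.075 (SE 0.114). Rpl10, which joins last and completes the large subunit, had −0.26 (SE 0.155) with the lowest value, 6.76, on a KI-treated array and the highest, 7.96, on a control array.

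Rpl10l and Rpl39l, paralogues with restricted expression, had a wider spread between arrays than Rpl10 and Rpl39. Rpl10l, a copy of Rpl10 known from the testis, varied from 0.35 to 1.36 in the KI-treated group and from 0.035 to 2.29 in the control group, with a log2 fold change of −0.081 (SE 0.321). Rpl39l, the corresponding copy of Rpl39, varied from −1.72 to 0.41 and from −2.03 to 0.76, with −0.046 (SE 0.487). Their SD within groups, 0.64 and 0.99, were the largest of the members together with that of Rpl28 (0.41). Rpl39, a protein of the peptide tunnel, had −0.29 (SE 0.131, adjusted p = 0.389). Rps27l, a target of p53 related to Rps27, had −0.14 (SE 0.152) and Rps27 had −0.22 (SE 0.151). Whether a paralogue differed from its partner was not tested. Probes of Rps27 lie on more than 1 chromosome in rn4, which also holds for 4 other members, and signal from near-identical copies cannot be told apart on these probes.

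The 5 members with the highest log2 fold changes were Rpl28 at 0.31 (SE 0.213), Rps4x at 0.22 (SE 0.132), Rps2 at 0.13 (SE 0.128), Rpl6 at 0.043 and Rps14 at 0.030, and none of them passed an unadjusted p under 0.05. Rpl28, a large subunit protein, ranged from 4.35 to 4.75 in the KI-treated group and from 3.35 to 4.94 in the control group. Its lowest control values were 3.35 on control 4 and 3.87 on control 6. Rps2, a small subunit protein methylated by Prmt3, lay between 6.09 and 6.20 on all KI-treated arrays, and in the control group it was 5.51 on control 4, 5.72 on control 6 and 6.13 to 6.24 on the other 5. Rps4x, the X-linked small subunit gene, was lowest at 4.12 on control 6. Without control 4 and control 6 the log2 fold changes were 0.033 for Rpl28, −0.033 for Rps2 and 0.11 for Rps4x. When arrays were scaled to the member median instead, a setting chosen after seeing the data, Rps4x had 0.42 (adjusted p = 0.342); it was the only member under 0.05 unadjusted, where 13.1% of all probes were higher and 1.21% lower.

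Probes of the same gene disagreed according to where they lie. Of 195 tested member probes, 115 were not the brightest of their gene. Of these, 27 from 19 genes lay at least 1000 bases upstream of the brightest on rn4, on the same chromosome and strand. Distances, here and below, are between lower rn4 coordinates, so they count introns and are not distances along the mRNA. A probe that spans an intron can end near the brightest, as in Rpl39 (−0.299 and −0.291, brightest −0.287). The median log2 fold change of the 27 upstream probes was −0.088, and 24 of 27 were less negative than the brightest probe of the same gene. The 77 other probes within 1000 bases of the brightest had a median of −0.17. Without control 4 and control 6, a setting chosen after seeing the data, the medians were close, −0.073 for the upstream and −0.088 for the nearer probes. The clearest cases were Rpl5 and Rpl7, whose sequences are printed above.

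In Rpl5 the upstream probe had a log2 fold change of 0.50 (SE 0.250, adjusted p = 0.406), whereas the brightest probe had −0.19. The log2 ratio of upstream to brightest probe, relative to its own mean, lay between 0.32 and 0.47 on the 6 KI-treated arrays and between −1.52 and 0.33 on the control arrays, with −1.52 on control 4 and −1.26 on control 6. In Rpl7, a large subunit protein, the upstream probe had 0.42 (SE 0.275, adjusted p = 0.472), and the other 5 probes had −0.19 to −0.12. The ratio for Rpl7 was −1.69 on control 4 and −1.12 on control 6, against 0.19 to 0.43 in the KI-treated group. Without these 2 arrays the upstream probes of Rpl5 and Rpl7 had log2 fold changes of 0.15 and 0.0095. Rpsa showed the same arrays, with ratios of −1.26 and −0.78.

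Over the 27 upstream probes the ratio to the brightest probe was below its own mean for 26 on control 4 and for 25 on control 6. It was below for 1 to 6 of 27 on the KI-treated arrays. The other 5 control arrays were not alike, with 3 to 5 of 27 on control 1, control 2 and control 5 but 17 on control 3 and 13 on control 7. Medians were −0.35 and −0.31 on control 4 and control 6 and 0.067 to 0.11 in the KI-treated group. On control 1, control 2 and control 5 they were 0.14, 0.060 and 0.082, and on control 3 and control 7 −0.067 and 0.0024. Among 2651 genes of the whole array with tested probes at least 1000 bases apart, the corresponding medians were −0.43 and −0.29 on control 4 and control 6, 0.019 to 0.12 in the KI-treated group, −0.088 on control 7 and 0.11 to 0.12 on the other 4 control arrays. The part of probe position in the difference between groups was not tested.

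**Figure D5:**
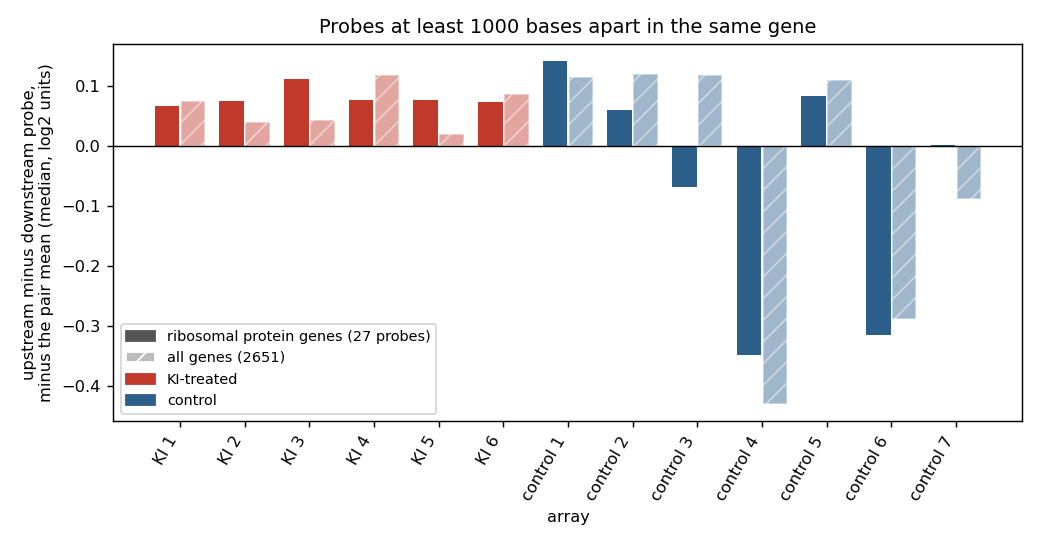
Median log2 ratio of an upstream to a downstream probe of the same gene, relative to the mean of each pair over the arrays, for 27 upstream probes of ribosomal protein genes (solid bars) and for 2651 genes of the array (hatched bars), on each KI-treated (red) and control (blue) array. Control 4 and control 6 lie at −0.35 and −0.31 for ribosomal protein genes, and all KI-treated arrays are above 0.

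Other lists of the translation apparatus are given by their counts at an unadjusted p under 0.05. Of 69 tested mitochondrial ribosomal protein genes, 6 had positive and 1 a negative difference at an unadjusted p under 0.05, with a median log2 fold change of −0.13; the smallest p-values belonged to Mrpl42 (0.80, adjusted p = 0.353), Mrps2 (0.74) and Mrps23 (0.43). Among 9 elongation factors and related genes 0 passed in limma and the median was −0.014, with Eif5a at 0.32, Eef1g at −0.18 and Eef2 at 0.20. Of 26 initiation factors, 2 were higher, Eif3b (0.48) and Eif3d (0.55), and the median was −0.057. Of 32 ribosome biogenesis genes, 3 were higher and 2 lower, with a median of −0.088; the RNA polymerase I subunits Polr1a and Polr1e had 0.54 and 0.49, and Taf1b had −0.28. Of 10 genes of the integrated stress response, Ddit4 was higher (0.32, adjusted p = 0.358), and Atf4 and Ppp1r15a had −0.28 and −0.32 without passing. Of 10 ribosome-associated and fusion genes, Rsl24d1 (0.55) and Gnb2l1 (0.59), which encodes the ribosomal scaffold protein Rack1, were higher. No gene of these lists passed an adjusted p of 0.05, and 12.7% of all probes passed an unadjusted p under 0.05 in either direction.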

How the data were processed

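Total RNA of 13 rat thyroids (6 KI-treated, 7 control) was labelled with Cy3 and hybridised to Agilent 8x60K arrays. Deposited intensity values were the scanner output of Agilent Feature Extraction 10.7.3.1 (background-subtracted processed signal, 1 file per array); the authors' deposited log2 values in the series table were used only as an alternative, and their scale is known only as log2 with a median near 7 per array, the normalization not being given in the sources used here. Spots flagged as outliers were left out, spots of a probe were averaged, and log2 signals were set relative to the 75th percentile of each array over 45598 gene probes. The 25717 probes that Feature Extraction marked as well above background on 6 or more arrays were tested with limma 3.58.1 in R 4.3.3 (6 against 7 arrays, no covariate), with Benjamini-Hochberg adjustment over all of them. No count depth exists for arrays; their number limits the precision. Alternatives were other scalings and background corrections, filters, variance models, blocks for slide, scan session and replicate number, and leaving out each array. Scripts were tested on simulated data. At a simulated log2 change of 0.5, 1 of 200 changed probes was recovered at an adjusted p under 0.05 in limma, and 145 of 200 at a change of 1. Member log2 fold changes lay between −0.32 and 0.31, and changes of that size were not simulated. The lack of adjusted calls therefore does not show that members were unchanged.

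Genes named in the text are the 10 members with the smallest p, the 5 highest and 5 lowest fold changes, the 3 largest and 3 smallest SDs within groups, members with a probe of opposite sign differing by over 0.5, 10 members with known special roles, the paralogues beside their partners, and gene names without a passing probe; for other lists, genes whose p is among the 3 smallest. Members and lists were chosen with earlier results of these data known, and the comparisons are no independent evidence. Brightest-probe accessions matched RefSeq for 78 of 80 members, 76 under the same symbol; file names were kept. Rpl37 and Rpl39l match other current symbols. Some genes of the lists are not reported here.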

Additional observations from a re-analysis of the deposited data

Results flagged for a closer look

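Of 68 group checks of named members and of the member median for a sample far from the others (Dixon's test, which flags about 1 in 20 groups by chance), 1 stood out. Rpl39 on KI 4, at 6.86 log2 units above the 75th percentile, lay below the other KI-treated arrays, whose group median was 7.15. KI 4 had the lowest member median of all arrays (−0.35) and the lowest skeletal muscle genes (−3.03); the part of either in the value of Rpl39 was not tested.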

How the results depend on the processing

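The 14 members lower at an unadjusted p under 0.05 and the median log2 fold change of −0.20 depended on the scaling. Under quantile normalization the count was 0, the median 0.032 and the difference between groups of the array medians 0.033. With normexp and quantile normalization the values were 1, 0.035 and 0.040, and in the deposited log2 values 1, −0.015 and −0.011. The 1 member was higher in the KI-treated group in both, and 0 were lower. Over all probes 7.41% and 7.33% were higher, and 5.53% and 5.28% were lower. With quantile normalization and the slide as a block, chosen after seeing the data, 1 member (Rps2) was higher, 0 were lower and the median was 0.040. The count was 0 when arrays were scaled to their median, 5 without a filter on dim probes and 5 with array weights. The shares of all probes that were lower in these 3 fits were 3.44%, 5.84% and 10.3%. It was 9 for the mean of the tested probes, 22 with a trended variance, 38 with slide and 59 with scan session as a block. Scaling to the array median left 74 of 80 members negative, with a median log2 fold change of −0.16. Over all probes 55.4% were then negative, with a median of −0.035. Normexp with the 75th percentile gave 12 lower members (15%), 74 of 80 negative and a median of −0.16. In that fit 13.3% of all probes were lower, 70.6% were negative and their median was −0.10. Under quantile normalization 24 of 80 were negative. Chosen after seeing the data, leaving out both dim control arrays gave 2 lower members, where 5.91% of all probes were lower. Scaling to the member median, also chosen after seeing the data, gave 0 lower and 1 higher (Rps4x), where 13.1% of all probes were higher. Leaving out 1 array at a time gave counts from 1 (without KI 4) to 20 (without control 3), with 2 without KI 1, 3 without control 4, 3 without control 6, 5 without KI 6, 7 without KI 5 and 8 without control 7, and medians from −0.24 to −0.14; the difference of array medians lay between −0.24 and −0.14 as well. In the fits without 1 array, the share of all probes that were lower lay between 4.87% (without KI 1) and 9.76% (without control 1). It was 5.83% without KI 4 and 6.77% without control 3. Adjusted calls among the members were 0 in limma under every alternative run. Over all probes limma gave 50 with array weights, 1 without control 1 and 1 without control 2. Under quantile normalization Rpl41, Rplp1 and Rps23 turned to 0.067, 0.027 and 0.000425; with normexp before it Rpl41, Rplp1, Rps21 and Rps23 had 0.039, 0.042, 0.0029 and 0.020, and with the slide as a block after quantile normalization Rpl35, Rpl41, Rplp1 and Rps23 had 0.00065, 0.096, 0.023 and 0.0094. The other alternatives run turned no named member with an unadjusted p under 0.05. The cause of these changes was not tested. Control 4 and control 6 had the widest bright end, and its part in these changes was not tested either. With the replicate block (pairs 1 to 6, control 7 dropped) the count was 0, where 5.03% of all probes were lower, and the median −0.20. Same-numbered arrays correlated between −0.11 and 0.071 in their deviations and 0 of 6 best with their own number. These values show no pairing by number. They cannot exclude a pairing in the design, which the labels do not give.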
